A study of Mus musculus with 15 samples.

Results

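The genes described here encode enzymes that build, extend and cap sugar chains on proteins and lipids. They were taken by symbol from the probe sets that carry 1 gene symbol, so a gene sharing its probe set with another is left out. Every gene on those probe sets was taken whose name begins with Galnt, B3gnt, B3galt, B4galt, B4galnt, St3gal, St6gal, St6galnac, Fut, Gcnt, Chst or C1galt followed by a digit. This gave 81 members, each with 1 probe set, of 22142 probe sets on the array, of which 19527 carry 1 gene symbol. The series holds whole colon RNA from 15 mice aged 11 weeks, hybridised to Clariom S mouse arrays with 1 array per mouse and 100 ng of RNA per array. The 5 mice of genotype NEMO IEC-KO Ripk1 S166A/S166A (S166A mice) have no NEMO in intestinal epithelial cells and carry on both alleles a RIPK1 in which the serine at its autophosphorylation site is replaced by alanine. The 5 NEMO IEC-KO mice with wild-type Ripk1 (KO mice), set by their titles, are deleted in those cells too. The 5 NEMO FL mice (FL mice) carry the loxP-flanked Nemo allele that all 3 groups share and keep NEMO. Deletion was driven by Villin-Cre, which acts in the epithelium, so the other cells of the colon keep NEMO in every group, while the Ripk1 mutation is in the germline and therefore in all cells of the S166A mice. NEMO is the regulatory subunit of the kinase that activates NF-κB, and its loss in the epithelium is known to cause colitis.

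Mucin-type O-glycosylation starts in the Golgi, where Galnt enzymes attach N-acetylgalactosamine (GalNAc) to serine or threonine. C1galt1 with its chaperone C1galt1c1 adds galactose to make core 1, Gcnt enzymes branch it to core 2, and B3gnt6 makes the core 3 structure that colonic goblet cells place on the mucin Muc2. B3gnt, B3galt and B4galt enzymes then lengthen the chains, and fucose, sialic acid, GalNAc and sulfate cap them, which makes the mucus gel resistant to bacterial enzymes. The symbols also bring in enzymes of other glycans: Chst3, Chst11 and Chst13 sulfate chondroitin, B3gnt5, B4galnt1 and St3gal5 act on glycolipids, B4galt7 and B3galt6 build the proteoglycan linker, and Fut8 and St6gal1 act on N-glycans. The label mucin-type therefore fits a subset of the members.

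The deposited values were read as log2, since they run between 1.69 and 13.6, and array medians lay between 6.27 and 6.36. Ikbkg, which encodes NEMO, averaged 5.29 ± 0.09 in S166A mice and 5.16 ± 0.19 in KO mice, against 6.38 ± 0.15 in FL mice (SD, n = 5 each). Mice are named by the running number that opens their sample titles, and their values are given in the order 1, 2, 3, 4 and 5 for S166A mice, 11, 12, 13, 15 and 18 for KO mice, and 6, 7, 8, 9 and 10 for FL mice. Mouse 10 has a title ending WT and a genotype label naming it NEMO IEC-KO. It was kept with the FL mice by its title, and its Ikbkg value of 6.28 lay within the 6.18 to 6.55 of the FL group and above all 10 others. By the 3 Y-linked genes measured, 5 of 5 S166A, 2 of 5 KO and 1 of 5 FL mice were male. Values were less spread on the arrays of S166A mice 1 and 2, whose middle 50% spanned 3.06 and 3.01, than on the remaining 13, where it spanned 3.22 to 3.40. Differences are of group means on the log2 scale, ± the standard error, with limma's p adjusted by Benjamini-Hochberg over all 22142 probe sets, and a member was called at an adjusted p under 0.05.

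Glycan enzymes changed in both directions in KO mice. In KO mice 12 of the 81 members rose and 18 fell against FL mice. Of all probe sets 11.6% rose and 13.8% fell in this comparison, and the members' shares were 14.8% and 22.2%. In S166A mice a total of 16 members rose and 11 fell against KO mice, which is 19.8% and 13.6% of the members, with 9.33% and 9.9% of all probe sets. No member was called between S166A and FL mice, where 0.0181% of all probe sets were called higher and 0.0361% lower. The median absolute difference of the members was 0.34 in KO against FL mice, with 0.21 over all probe sets. It was 0.24 in S166A against KO mice, with 0.20 over all probe sets, and 0.12 on both sides in S166A against FL mice. The first 2 of these comparisons share the 5 KO mice, so their values are not independent of each other, and each is given with its own values. The arrays measure whole colon tissue, so fewer cells of a type and less RNA per cell cannot be told apart.

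**Figure D1:**
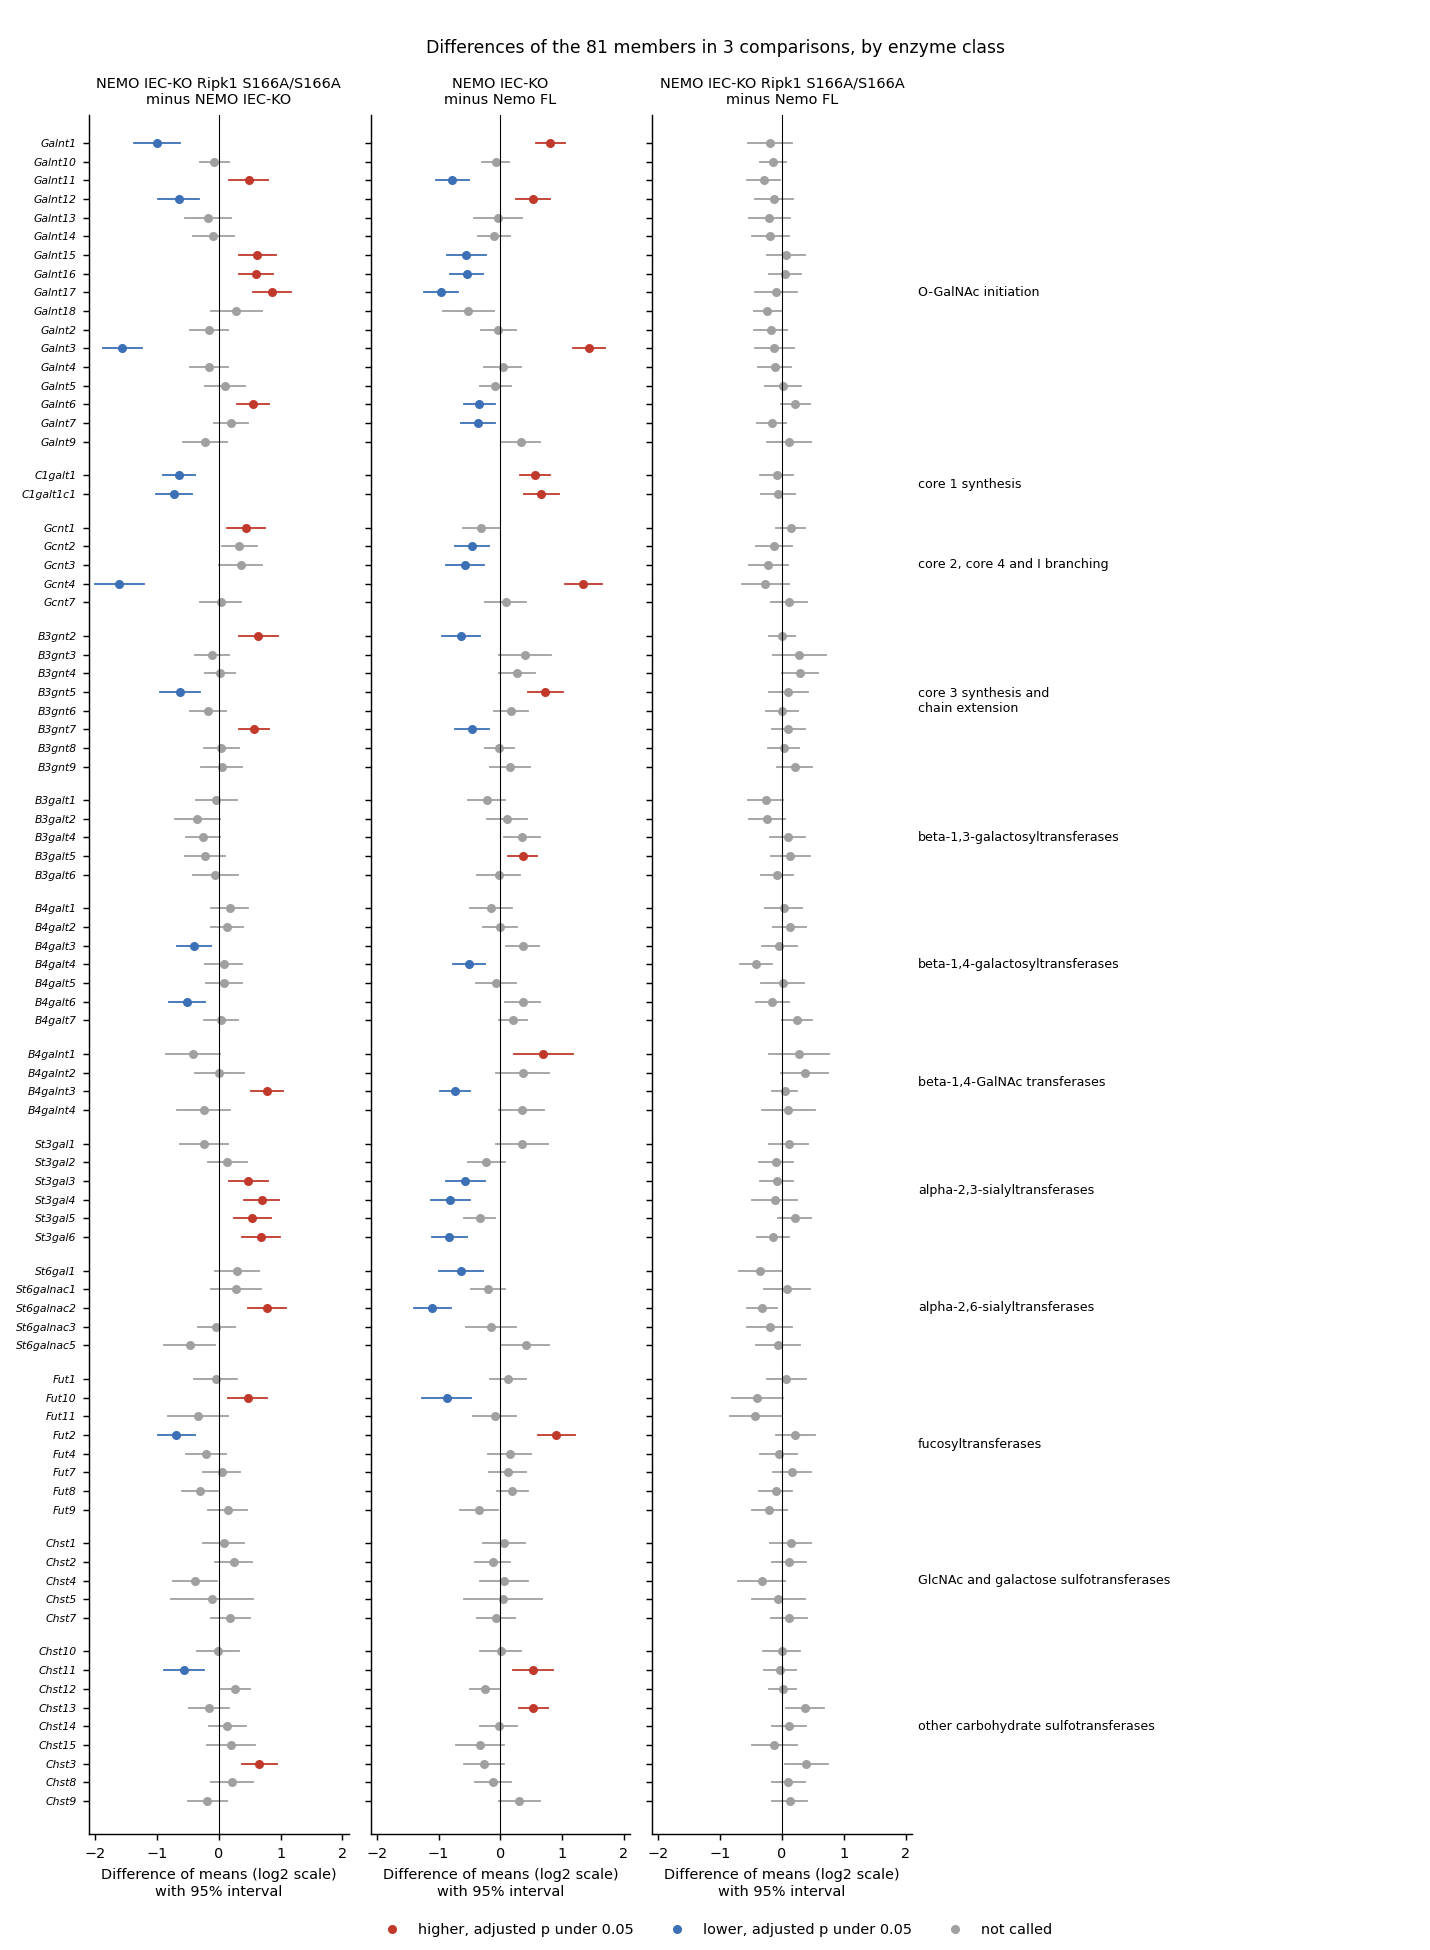
Difference of group means on the log2 scale (x axis) for each of the 81 members (y axis, grouped by enzyme class) in 3 comparisons, with 95% intervals. Red points were called higher and blue points lower at an adjusted p under 0.05, and grey points were not called. In KO against FL mice 12 points are red and 18 blue, and in S166A against FL mice all 81 are grey.

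The initiating enzymes held the largest difference of the set in KO against FL mice. Of 17 Galnt genes, 3 rose and 6 fell in KO against FL mice, and 5 rose and 3 fell in S166A against KO mice. The shares are 17.6% and 35.3% in KO against FL mice, with 11.6% and 13.8% of all probe sets. In S166A against KO mice they are 29.4% and 17.6%, with 9.33% and 9.9% of all probe sets. Galnt3, which is known for glycosylating the hormone FGF23, stood at 7.89, 7.85, 8.36, 8.04 and 8.56 in S166A mice and 9.67, 9.63, 9.51, 9.76 and 9.92 in KO mice, against 8.52, 8.24, 8.06, 8.19 and 8.30 in FL mice. Every KO mouse was above all 10 other mice. The difference was 1.44 ± 0.12 in KO against FL mice (2.71-fold higher, limma adjusted p = 7.61e-07) and -1.56 ± 0.15 in S166A against KO mice (adjusted p = 7.95e-06). For Galnt1, a widely expressed isoenzyme, the values were 7.30, 6.94, 7.90, 7.86 and 7.79 in S166A mice and 8.68, 8.47, 8.52, 8.69 and 8.44 in KO mice, against 7.92, 7.61, 7.72, 7.86 and 7.66 in FL mice. The KO values were again the 5 highest, while S166A mice 1 and 2 were the 2 lowest of all. Galnt1 differed by 0.81 ± 0.11 in KO against FL mice (limma adjusted p = 8.42e-05) and was 2.00-fold lower in S166A than in KO mice (adjusted p = 9.97e-04).

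Galnt17 and Galnt11 ran the other way. Galnt17 had 6.56, 6.43, 5.93, 6.66 and 6.09 in S166A mice and 5.38, 5.37, 5.54, 5.48 and 5.57 in KO mice, against 6.61, 6.14, 6.78, 6.39 and 6.24 in FL mice, and the KO values did not overlap with either other group. It fell by 0.96 in KO against FL mice (limma adjusted p = 7.62e-05) and rose by 0.86 ± 0.15 in S166A against KO mice (adjusted p = 8.52e-04). Galnt11, known for glycosylating the receptor Notch1, had 7.14, 7.27, 7.03, 7.69 and 7.35 in S166A mice and 6.47, 7.10, 6.99, 6.72 and 6.79 in KO mice, against 7.48, 7.61, 7.55, 7.58 and 7.74 in FL mice. The KO and FL values did not overlap, while the S166A mice spanned the gap between them. Its differences were -0.78 ± 0.13 in KO against FL mice (limma adjusted p = 3.75e-04) and 0.48 ± 0.15 in S166A against KO mice (adjusted p = 0.0368). The second of these had an adjusted p between 0.0573 and 0.0976 without any 1 of the S166A mice 2, 4 and 5 or the KO mice 11, 15 and 18.

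Of the remaining initiating enzymes, Galnt12 differed by 0.52 in KO against FL mice and by -0.65 in S166A against KO mice. Galnt15 differed by -0.55 and 0.62 in the same comparisons, Galnt16 by -0.55 and 0.60, and Galnt6 by -0.34 and 0.55, all called. With a sex term the S166A against KO calls of Galnt12 (adjusted p = 0.112) and Galnt15 (0.0563) were lost. Galnt7, which prefers peptides that already carry GalNAc, fell by 0.36 in KO against FL mice and had a difference of 0.20 in S166A against KO mice that was not called. The calls of Galnt6 and Galnt7 in KO against FL mice rest on small margins. The adjusted p of Galnt6 was 0.0545 to 0.098 without any 1 of the KO mice 11, 13 and 15 or the FL mice 6, 7, 9 and 10. That of Galnt7 was 0.0602 to 0.111 without any 1 of the KO mice 11, 13, 15 and 18 or the FL mice 6, 7, 8 and 9. The other 8 Galnt genes (Galnt2, Galnt4, Galnt5, Galnt9, Galnt10, Galnt13, Galnt14 and Galnt18) were not called in any comparison. Galnt18 had a difference of -0.52 ± 0.19 in KO against FL mice, with an adjusted p of 0.0627.

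Both genes of core 1 synthesis rose in KO against FL mice and fell in S166A against KO mice. Of all probe sets 11.6% rose in the first comparison and 9.9% fell in the second. C1galt1, the galactosyltransferase, had 9.25, 9.23, 9.43, 9.22 and 9.71 in S166A mice and 9.96, 10.00, 9.97, 10.14 and 9.99 in KO mice, against 9.56, 9.36, 9.19, 9.61 and 9.56 in FL mice. It differed by 0.56 ± 0.11 in KO against FL mice (limma adjusted p = 0.00197) and by -0.64 ± 0.12 in S166A against KO mice (adjusted p = 0.00214). C1galt1c1, the chaperone without which that enzyme is degraded, had 7.80, 7.59, 8.10, 7.77 and 7.81 in S166A mice and 8.34, 8.46, 8.76, 8.76 and 8.38 in KO mice, against 7.91, 7.85, 7.71, 7.69 and 8.22 in FL mice. Its differences were 0.66 ± 0.13 (adjusted p = 0.00203) and -0.72 ± 0.13 (adjusted p = 0.00165) in the same order. For both genes the 5 KO values lay above those of the other 10 mice, and the calls of both genes in both comparisons held when any 1 mouse was left out.

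The branching enzymes split. Gcnt4, a core 2 enzyme, had 5.12, 4.33, 5.51, 5.05 and 5.01 in S166A mice and 6.58, 6.67, 6.91, 6.68 and 6.24 in KO mice, against 5.27, 5.44, 5.26, 5.48 and 4.92 in FL mice. All 5 KO mice were above the rest, and S166A mouse 2 was the lowest. Gcnt4 differed by 1.34 ± 0.14 in KO against FL mice (2.54-fold higher, limma adjusted p = 7.55e-06) and by -1.61 ± 0.19 in S166A against KO mice (adjusted p = 4.41e-05), the largest difference of any member there. Gcnt3, the enzyme that makes core 2 and core 4 branches on mucins, had 9.53, 9.26, 9.51, 9.69 and 8.89 in S166A mice and 8.71, 9.36, 9.23, 8.84 and 8.99 in KO mice, against 9.55, 9.82, 9.66, 9.63 and 9.33 in FL mice. It fell by 0.57 ± 0.14 in KO against FL mice (limma adjusted p = 0.00744), although KO mouse 12 overlapped with FL mouse 10, and had 0.35 ± 0.17 in S166A against KO mice (adjusted p = 0.162).

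Gcnt1, the core 2 enzyme of many cell types, had 9.10, 9.18, 9.27, 9.17 and 8.88 in S166A mice and 8.50, 8.79, 9.04, 8.73 and 8.32 in KO mice, against 8.84, 9.15, 9.02, 8.87 and 9.02 in FL mice. All 3 groups overlapped. The difference in KO against FL mice was -0.31 ± 0.14 (limma adjusted p = 0.117, and 0.0398 without KO mouse 13). In S166A against KO mice it was 0.44 ± 0.14 (adjusted p = 0.0413), a call that was lost at 0.0646 to 0.0926 without any 1 of the S166A mice 1, 2, 3 and 4 or the KO mice 11, 15 and 18. Gcnt2, which makes the branched I antigen, fell by 0.46 in KO against FL mice (adjusted p = 0.0169, and 0.0508 without FL mouse 7). Gcnt7 was not called.

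The promoters of the 3 members with the largest rises and the 3 with the largest falls in KO against FL mice are shown because they hold the largest differences of the set, as far as RefSeq's promoter table (build GRCm38.p6) lists them. Fut2, Galnt1, St6galnac2 and Fut10 had no entry. The table listed 82 promoters for 61 of the 81 members. Each sequence is the 250 bases before the most upstream listed start, on the gene's strand, and capitals mark matches on either strand to any of 6 motifs. Those of the inflammatory factors were TTCNNNGAA for STAT and, for NF-κB, GGGA followed after any 2 bases by TTCC. Those of the intestinal factors were CAAAGNNCA for HNF4 and TTTATNG for CDX. The general ones were the GC box, with the letters GGGCGG, and the TATA box, with the letters TATAAA. N stands for any base.
Galnt3 (chr2:66124794-66125043, minus strand): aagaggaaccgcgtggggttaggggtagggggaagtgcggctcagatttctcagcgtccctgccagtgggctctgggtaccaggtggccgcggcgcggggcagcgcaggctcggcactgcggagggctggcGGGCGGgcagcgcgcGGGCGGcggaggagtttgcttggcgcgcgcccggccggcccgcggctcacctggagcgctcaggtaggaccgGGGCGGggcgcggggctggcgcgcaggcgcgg
Gcnt4 (chr13:96924094-96924343, plus strand): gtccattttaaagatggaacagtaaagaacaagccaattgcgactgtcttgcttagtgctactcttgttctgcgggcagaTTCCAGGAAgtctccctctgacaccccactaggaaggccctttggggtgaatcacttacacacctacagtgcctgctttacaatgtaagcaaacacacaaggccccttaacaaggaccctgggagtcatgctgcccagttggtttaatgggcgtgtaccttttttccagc
B3gnt5 (chr16:19759984-19760233, plus strand): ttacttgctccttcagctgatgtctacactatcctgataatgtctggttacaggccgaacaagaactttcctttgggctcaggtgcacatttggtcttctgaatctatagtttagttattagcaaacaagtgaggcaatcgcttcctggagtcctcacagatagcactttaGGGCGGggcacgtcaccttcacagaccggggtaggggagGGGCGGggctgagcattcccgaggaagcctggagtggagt
Galnt17 (chr5:131307523-131307772, minus strand): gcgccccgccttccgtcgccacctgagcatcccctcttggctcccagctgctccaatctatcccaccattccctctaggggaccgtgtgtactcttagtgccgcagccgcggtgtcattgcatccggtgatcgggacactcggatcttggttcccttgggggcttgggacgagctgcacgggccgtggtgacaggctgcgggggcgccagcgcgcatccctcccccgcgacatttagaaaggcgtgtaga
St3gal6 (chr16:58524254-58524503, minus strand): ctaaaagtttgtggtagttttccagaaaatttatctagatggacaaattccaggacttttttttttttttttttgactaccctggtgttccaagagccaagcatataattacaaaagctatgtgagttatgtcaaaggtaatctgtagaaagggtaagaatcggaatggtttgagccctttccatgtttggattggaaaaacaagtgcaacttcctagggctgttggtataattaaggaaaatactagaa
St3gal4 (chr9:35116865-35117114, minus strand): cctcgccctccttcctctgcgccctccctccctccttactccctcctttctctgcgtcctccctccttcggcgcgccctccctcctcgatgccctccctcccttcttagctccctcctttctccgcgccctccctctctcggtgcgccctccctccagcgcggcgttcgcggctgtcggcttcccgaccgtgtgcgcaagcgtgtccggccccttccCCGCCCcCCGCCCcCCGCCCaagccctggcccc
Galnt3 and St3gal4, of opposite direction, each had 3 GC boxes in these windows and B3gnt5 had 2. Gcnt4 had 1 STAT motif, which began 170 bases before its start, and Galnt17 and St3gal6 had no match in the window shown. Gcnt4 and St3gal6 each have 2 listed promoters, and the promoter not shown holds a GC box in both genes. In 2 places of St3gal4 GC boxes lie 1 base apart, and none of the matches shown overlapped another motif. Over the 82 promoters of members, 53.7% held a GC box, with 32.7% of all 32851 promoters of this length. The STAT motif was in 4.88% of members' promoters and 7.02% of all, the HNF4 motif in 1.22% and 5.49%, the CDX motif in 3.66% and 9.81%, and the TATA box in 1.22% and 12.4%. No member's promoter held the NF-κB motif, which was in 1.21% of all promoters. A match to these letters is a description of the sequence, and binding was not measured.

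Among the B3gnt genes 1 rose and 2 fell in KO against FL mice, of 8. The shares are 12.5% and 25%, with 11.6% and 13.8% of all probe sets. B3gnt5, which starts the lacto-series glycolipids, had 9.98, 10.05, 9.89, 10.06 and 10.63 in S166A mice and 10.84, 10.85, 10.62, 10.95 and 10.49 in KO mice, against 10.03, 9.99, 9.92, 9.81 and 10.38 in FL mice. The KO values were above those of every FL mouse and above 4 of the 5 S166A mice, with S166A mouse 5 at 10.63. B3gnt5 differed by 0.72 ± 0.13 in KO against FL mice (limma adjusted p = 9.16e-04) and by -0.63 ± 0.15 in S166A against KO mice (adjusted p = 0.0089, and 0.0676 without S166A mice 1 and 2). B3gnt2, the main enzyme of poly-N-acetyllactosamine chains, had 9.29, 9.19, 9.32, 9.36 and 9.19 in S166A mice and 8.47, 8.80, 8.96, 8.80 and 8.12 in KO mice, against 9.30, 9.22, 9.25, 9.17 and 9.38 in FL mice. The KO mice were all below the other 10 and spread more widely (SD 0.34, against 0.08 in each other group), and the differences were -0.64 ± 0.15 in KO against FL mice (adjusted p = 0.0048) and 0.64 ± 0.15 in S166A against KO mice (adjusted p = 0.0077).

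B3gnt7, which extends keratan sulfate-like chains, fell by 0.47 in KO against FL mice (adjusted p = 0.0149) and rose by 0.57 in S166A against KO mice (adjusted p = 0.00261). B3gnt6, the core 3 enzyme, had 3.19, 3.52, 3.30, 3.00 and 3.24 in S166A mice and 3.60, 3.18, 3.69, 3.22 and 3.41 in KO mice, against 3.03, 3.21, 3.41, 3.31 and 3.28 in FL mice. Its groups overlapped in each comparison, with a difference of 0.17 ± 0.13 in KO against FL mice (adjusted p = 0.355). Its mean over all mice was below the 25th percentile of probe sets, the lower of the filters tried, as were those of B3galt1, Chst5, Chst7, Chst9, Galnt13 and St6galnac3, none of which was called. Whether these 7 members stand above background was not tested.

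Of 5 B3galt genes 1 rose (20%) and of 7 B4galt genes 1 fell (14.3%) in KO against FL mice. Of all probe sets 11.6% rose and 13.8% fell in this comparison. B3galt5, which makes type 1 chains in the intestine, had 9.59, 9.72, 10.28, 9.57 and 10.18 in S166A mice and 10.09, 10.17, 9.90, 10.17 and 10.11 in KO mice, against 9.81, 9.76, 9.53, 9.76 and 9.79 in FL mice. The KO and FL values did not overlap, and the S166A mice spanned both. The difference in KO against FL mice was 0.36 ± 0.11 (limma adjusted p = 0.0231, but 0.0703 without FL mouse 8 and 0.0541 without KO mouse 15). It was -0.22 ± 0.15 in S166A against KO mice (adjusted p = 0.348). The other 4 B3galt genes were not called.

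Of 7 B4galt genes, B4galt4 was the only one called in KO against FL mice, although B4galt3 and B4galt6 were called higher under some alternatives, such as the fit with a sex term (adjusted p = 0.0147 and 0.0360). B4galt4, which acts on sulfated N-acetylglucosamine, had 6.28, 6.63, 6.36, 6.53 and 6.83 in S166A mice and 6.50, 6.36, 6.53, 6.15 and 6.70 in KO mice, against 7.11, 6.93, 6.89, 6.83 and 6.99 in FL mice. Both groups without epithelial NEMO lay below every FL mouse, though S166A mouse 5 and FL mouse 9 both round to 6.83. It fell by 0.50 ± 0.12 in KO against FL mice (limma adjusted p = 0.00639), with a difference of 0.08 ± 0.14 in S166A against KO mice (adjusted p = 0.759). In S166A against FL mice it had the smallest p of all members, with a difference of -0.42 ± 0.12 (unadjusted p = 0.00305, adjusted p = 0.323). B4galt6, a lactosylceramide synthase, fell by 0.52 in S166A against KO mice (adjusted p = 0.0152, but 0.126 with a sex term and 0.114 without S166A mice 1 and 2), and so did B4galt3 by 0.40 (adjusted p = 0.0381). The B4galt3 call was lost at 0.0619 to 0.0985 without any 1 of the S166A mice 1, 2 and 4 or the KO mice 11, 12, 15 and 18.

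GalNAc-adding enzymes of the chain ends went different ways. B4galnt3, which makes the LacdiNAc disaccharide, had 8.91, 8.98, 8.88, 9.04 and 8.98 in S166A mice and 8.21, 8.48, 8.02, 8.15 and 8.03 in KO mice, against 8.95, 8.96, 8.96, 8.88 and 8.83 in FL mice. The KO values were 0.35 or more below the rest. Its differences were -0.74 ± 0.11 in KO against FL mice (limma adjusted p = 2.22e-04) and 0.78 ± 0.12 in S166A against KO mice (adjusted p = 4.03e-04). B4galnt1, the synthase of the gangliosides GM2 and GD2, had 6.92, 6.11, 6.95, 7.05 and 6.38 in S166A mice and 6.83, 7.26, 7.05, 6.73 and 7.65 in KO mice, against 6.82, 6.72, 6.76, 5.94 and 5.79 in FL mice. These groups overlapped, and the difference of 0.70 ± 0.22 in KO against FL mice (adjusted p = 0.0313) was lost at 0.053 to 0.0905 without any 1 of the KO mice 12, 13 and 18 or the FL mice 9 and 10. B4galnt2, which makes the Sda antigen of the colon, had 10.34, 9.74, 10.45, 10.07 and 10.00 in S166A mice and 9.65, 10.50, 10.27, 9.75 and 10.39 in KO mice, against 10.04, 10.22, 9.24, 9.71 and 9.57 in FL mice. Its groups overlapped, with differences of 0.36 ± 0.20 in KO against FL mice (adjusted p = 0.215) and 0.01 ± 0.18 in S166A against KO mice (adjusted p = 0.98).

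**Figure D2:**
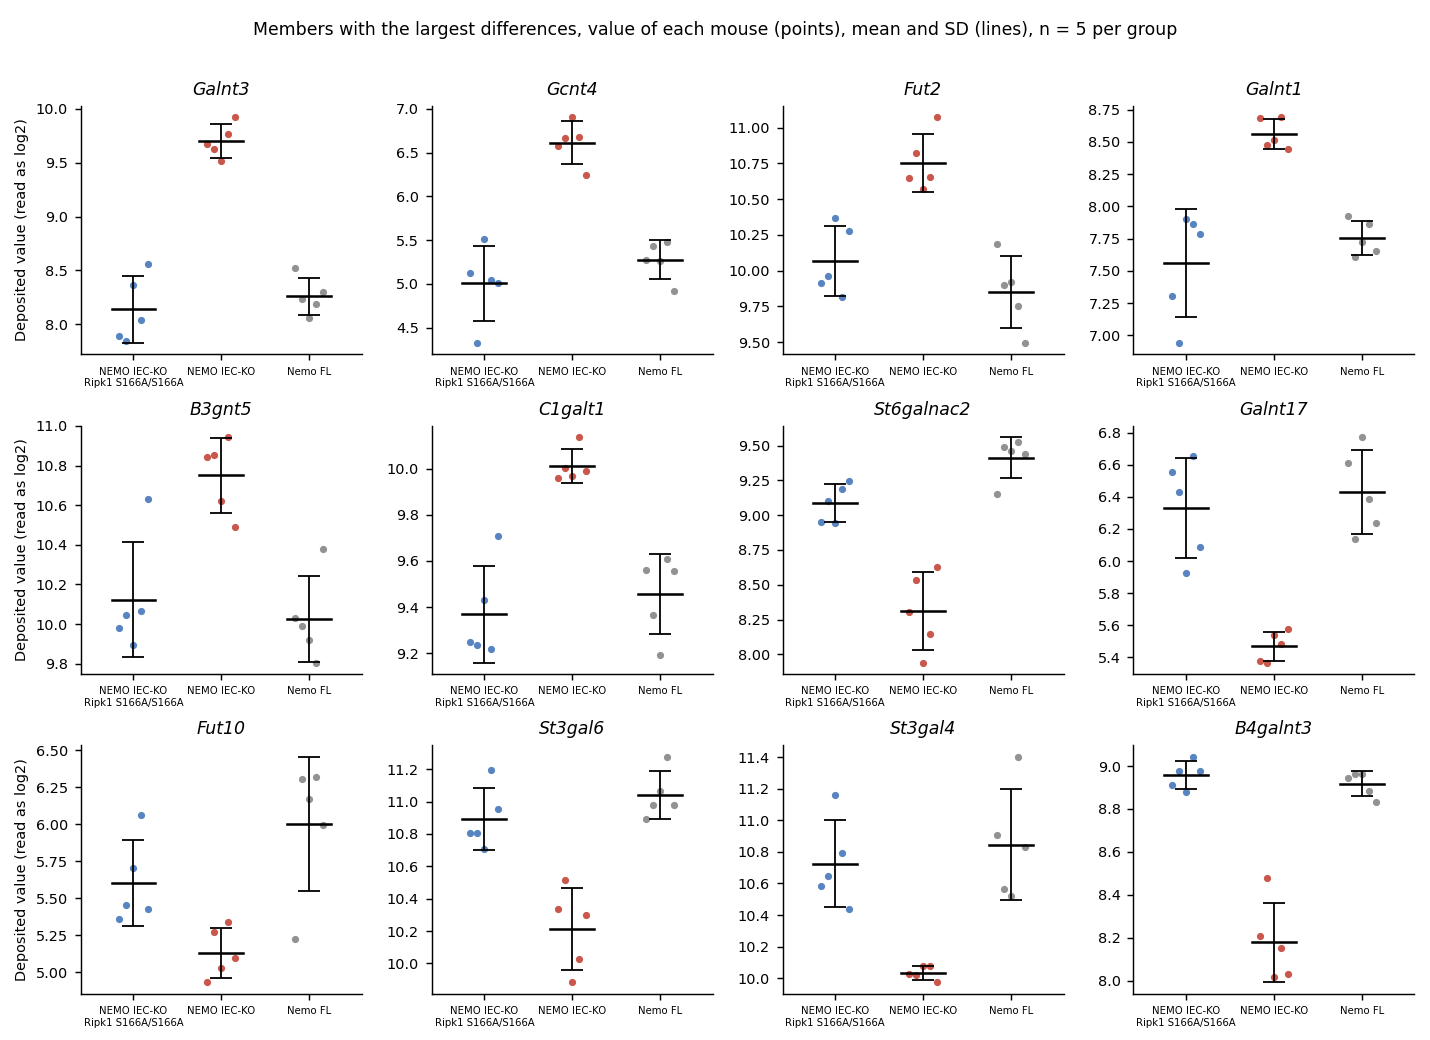
Value of each mouse (points, y axis, read as log2) for 12 members in S166A, KO and FL mice (x axis, left to right), with the mean and SD (lines, n = 5 per group). The axes do not start at 0 and differ between panels. In Galnt3 the 5 KO mice lie between 9.51 and 9.92, above all others, and in B4galnt3 they lie between 8.02 and 8.48, below all others.

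Sialyltransferases fell where they were called in KO mice. Of the 6 alpha-2,3 enzymes 3 fell and none rose against FL mice, and 4 rose and none fell in S166A against KO mice. Of the 5 alpha-2,6 enzymes 2 fell in KO against FL mice and 1 rose in S166A against KO mice. The falls in KO against FL mice are 50% and 40% of these classes, with 13.8% of all probe sets. The rises in S166A against KO mice are 66.7% and 20%, with 9.33% of all probe sets. St6galnac2, which sialylates the GalNAc of O-glycans, had 8.95, 9.10, 8.94, 9.19 and 9.25 in S166A mice and 8.30, 8.54, 7.94, 8.15 and 8.63 in KO mice, against 9.16, 9.49, 9.46, 9.53 and 9.44 in FL mice. All 5 KO mice were below the other 10, and 3 S166A mice were below every FL mouse. St6galnac2 was 2.15-fold lower in KO than in FL mice (-1.10 ± 0.14, limma adjusted p = 4.12e-05), the largest fall of the set. Against KO mice the S166A mice were higher by 0.78 ± 0.14 (adjusted p = 0.0016). Between S166A and FL mice the difference was -0.33 ± 0.11, with an unadjusted p of 0.0108 and an adjusted p of 0.409.

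St3gal6, which caps type 2 chains with sialic acid, had 10.81, 10.81, 10.71, 11.20 and 10.96 in S166A mice and 10.34, 10.52, 9.88, 10.03 and 10.30 in KO mice, against 10.89, 10.98, 11.07, 11.28 and 10.98 in FL mice. Again every KO mouse was below the other 10. St3gal6 fell by 0.83 ± 0.13 in KO against FL mice (limma adjusted p = 3.53e-04) and rose by 0.68 ± 0.14 in S166A against KO mice (adjusted p = 0.00399). St3gal4, an enzyme of the same linkage, had 10.59, 10.64, 11.16, 10.79 and 10.44 in S166A mice and 10.03, 10.02, 10.08, 10.08 and 9.97 in KO mice, against 10.91, 10.57, 10.52, 11.40 and 10.83 in FL mice. The 5 KO mice lay within 0.11 of each other and below the other 10. The differences of St3gal4 were -0.81 ± 0.15 in KO against FL mice (adjusted p = 9.70e-04) and 0.69 ± 0.14 in S166A against KO mice (adjusted p = 0.00248).

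St3gal3 fell by 0.57 in KO against FL mice (adjusted p = 0.0113) and rose by 0.48 in S166A against KO mice (adjusted p = 0.0368). The second call was lost at 0.0562 to 0.099 without any 1 of the S166A mice 1, 2, 4 and 5 or the KO mice 11, 12, 13 and 15. St3gal5, the GM3 synthase, rose by 0.54 in S166A against KO mice (adjusted p = 0.015, but 0.0994 with a sex term) and had a difference of -0.34 in KO against FL mice (adjusted p = 0.0506). St6gal1, the N-glycan sialyltransferase, fell by 0.64 in KO against FL mice (adjusted p = 0.0116), with 0.29 in S166A against KO mice (adjusted p = 0.25). St6galnac1, the sialyl-Tn synthase of goblet cells, had 6.98, 7.15, 6.68, 6.24 and 6.16 in S166A mice and 6.31, 6.13, 6.36, 6.23 and 6.76 in KO mice, against 6.58, 6.35, 6.62, 6.58 and 6.68 in FL mice. Its groups overlapped, the S166A mice 1 and 2 were the 2 highest of all, and the difference in KO against FL mice was -0.20 ± 0.13 (adjusted p = 0.283).

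**Figure D3:**
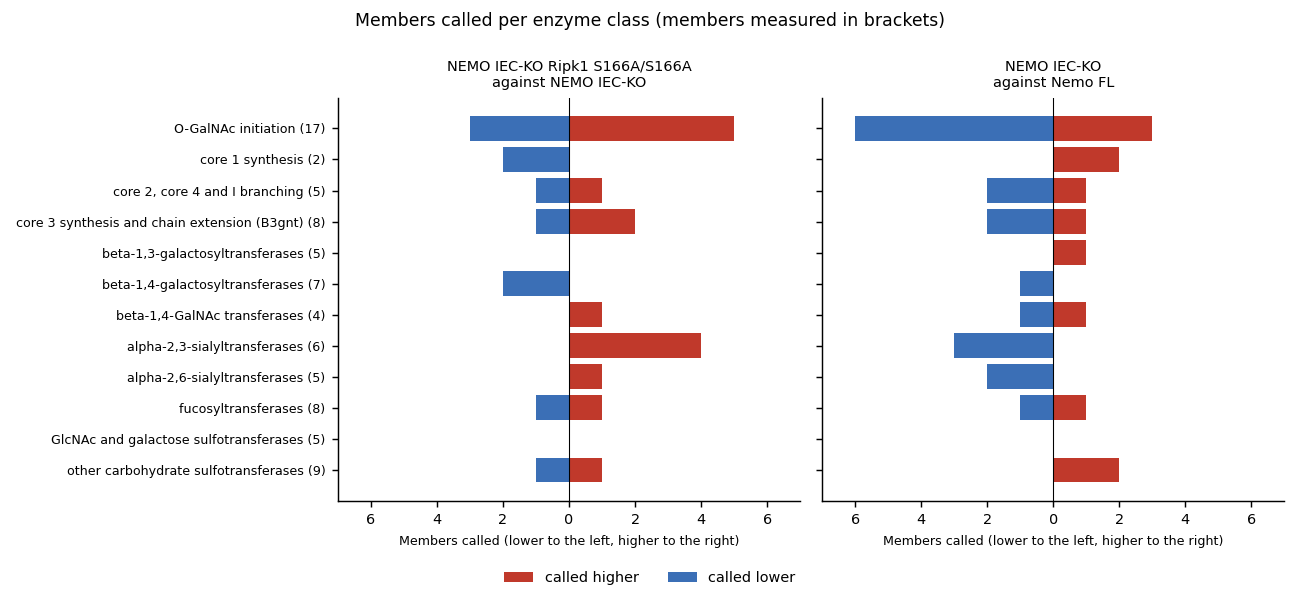
Number of members called higher (red, to the right) and lower (blue, to the left) per enzyme class at an adjusted p under 0.05, for S166A against KO mice (left) and KO against FL mice (right). Members measured per class are in brackets. Of the 6 alpha-2,3-sialyltransferases 4 were called higher on the left and 3 lower on the right, and none of the 5 GlcNAc and galactose sulfotransferases was called in either. Of all probe sets 9.33% were called higher on the left and 13.8% lower on the right.

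Of 8 fucosyltransferases 1 rose and 1 fell in KO against FL mice. That is 12.5% each way, close to the 11.6% and 13.8% of all probe sets. Fut2, the secretor enzyme that places alpha-1,2-linked fucose on epithelial glycans, had 9.91, 9.96, 10.37, 9.81 and 10.28 in S166A mice and 10.65, 10.82, 10.57, 10.65 and 11.07 in KO mice, against 10.18, 9.90, 9.92, 9.75 and 9.50 in FL mice. All 5 KO mice exceeded the others. Fut2 was 1.87-fold higher in KO than in FL mice (0.90 ± 0.14, limma adjusted p = 2.55e-04) and differed by -0.69 ± 0.14 in S166A against KO mice (adjusted p = 0.00377). Fut10 had 5.36, 5.45, 5.70, 6.06 and 5.43 in S166A mice and 4.93, 5.27, 5.03, 5.34 and 5.09 in KO mice, against 5.22, 6.30, 6.17, 6.32 and 5.99 in FL mice. FL mouse 6, at 5.22, lay among the KO values, while the other 4 were above all of them. The differences of Fut10 were -0.87 ± 0.18 in KO against FL mice (adjusted p = 0.0026) and 0.47 ± 0.15 in S166A against KO mice (adjusted p = 0.0367). The second was lost at 0.059 to 0.0939 without any 1 of the S166A mice 3 and 4 or the KO mice 11, 13 and 18. Fut1, Fut4, Fut7, Fut8, Fut9 and Fut11 were not called in any comparison.

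None of the 5 Chst genes that sulfate GlcNAc or galactose was called. Of all probe sets 11.6% rose and 13.8% fell in KO against FL mice, and 9.33% and 9.9% in S166A against KO mice. These 5 genes had differences between -0.13 and 0.06 in KO against FL mice and between -0.38 and 0.24 in S166A against KO mice. Chst4, which sulfates N-acetylglucosamine on mucins and on the ligands of L-selectin, had 7.94, 7.35, 8.12, 7.74 and 8.01 in S166A mice and 7.92, 8.25, 8.16, 8.06 and 8.67 in KO mice, against 8.49, 8.20, 8.44, 8.15 and 7.52 in FL mice. These values overlapped, with a 95% interval of -0.34 to 0.44 for the difference in KO against FL mice. Chst5, an intestinal enzyme of the same kind, had 3.86, 3.74, 3.12, 2.83 and 3.20 in S166A mice and 3.27, 2.92, 4.78, 2.74 and 3.54 in KO mice, against 3.33, 3.29, 3.06, 3.38 and 3.96 in FL mice. KO mouse 13 stood at 4.78 with the other 14 mice at or below 3.96, and the 95% interval in KO against FL mice was -0.59 to 0.68.

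Chondroitin sulfotransferases accounted for all calls in the Chst family. Chst13, a chondroitin 4-O-sulfotransferase, had 6.63, 6.67, 6.16, 5.92 and 6.14 in S166A mice and 6.28, 6.35, 6.53, 6.63 and 6.53 in KO mice, against 5.78, 5.94, 5.97, 5.88 and 6.09 in FL mice. KO and FL mice did not overlap, and S166A mice 1 and 2 lay at the top of the KO range or above it while the other 3 were between 5.92 and 6.16. The difference was 0.53 ± 0.11 in KO against FL mice (limma adjusted p = 0.00242), -0.16 ± 0.15 in S166A against KO mice (adjusted p = 0.523) and 0.37 ± 0.15 in S166A against FL mice (unadjusted p = 0.0212, adjusted p = 0.416). Chst11, of the same activity, rose by 0.53 in KO against FL mice (adjusted p = 0.0189, and 0.0525 without FL mouse 9). It fell by 0.56 in S166A against KO mice (adjusted p = 0.019, but 0.175 with a sex term). Chst3, a chondroitin 6-O-sulfotransferase, rose by 0.66 in S166A against KO mice (adjusted p = 0.00271) and differed by -0.27 in KO against FL mice (adjusted p = 0.219). Across the other 6 of the 9 remaining Chst genes no call was made.

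Between S166A and FL mice the members' differences ran from -0.43 to 0.39, and no adjusted p was under 0.05. At an unadjusted p under 0.05, 2 of the 81 members were higher and 6 of the 81 lower, with 5.3% and 5.25% of all probe sets. The 95% intervals do not show that the groups are alike: that of Galnt3 was -0.43 to 0.19, that of Fut2 -0.09 to 0.53 and that of St6galnac2 -0.57 to -0.09. All S166A mice were male and 4 of 5 FL mice were female, and no fit with sex was made for this comparison.

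The sex term and the placing of mouse 10 moved the counts. With a sex term 9 members rose and 6 fell in S166A against KO mice, which is 11.1% and 7.41% of the members, with 8.58% and 9.62% of all probe sets, so the members' shares came close to the background or below it. With males alone (5 S166A and 2 KO mice, chosen after seeing the data) 10 rose and 6 fell, or 12.3% and 7.41%, with 8.47% and 9.77% of all probe sets. The sex term ended 12 of the 27 calls, those of B3gnt2 (adjusted p = 0.14), Fut2 (0.0544), Fut10 (0.164), Galnt11 (0.155), Gcnt1 (0.39), Galnt12 (0.112), Galnt15 (0.0563), B4galt3 (0.226), B4galt6 (0.126), Chst11 (0.175), St3gal3 (0.142) and St3gal5 (0.0994). Males alone ended the same calls except that of Galnt15. As every S166A mouse was male, the sex term also set these mice against the 2 male KO mice. Both fits therefore gave the same differences, such as 0.39 for B3gnt2, and are not independent of each other. Whether the lost calls reflect sex or the fewer KO mice compared was not tested. In KO against FL mice the sex term gave 16 higher and 16 lower, or 19.8% each way, with 11.6% and 14.1% of all probe sets. Females alone gave 11 and 15, or 13.6% and 18.5%, with 6.85% and 9.80% of all probe sets.

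Mouse 10 had Ikbkg at 6.28, with 4.85 to 5.30 in KO mice. Its mean over absorptive colonocyte markers was 11.63, with 8.91 to 9.74 in KO mice. Over neutrophil markers it was 4.28, with 6.59 to 8.59 in KO mice. Its goblet cell and epithelial marker means, 11.26 and 11.44, lay within the KO ranges. Counting mouse 10 as a KO mouse, as its genotype label says, left 5 higher and 9 lower in KO against FL mice. That is 6.17% and 11.1% of the members, with 3.34% and 4.82% of all probe sets. The same placing left 7 higher and 6 lower in S166A against KO mice, or 8.64% and 7.41%, with 2.99% and 3.48% of all probe sets. Calls lost in KO against FL mice included those of Gcnt4 (adjusted p = 0.0684), Fut2 (0.133), B3gnt2 (0.136) and Galnt1 (0.0529). Those of Fut10 (0.0771), Galnt11 (0.0823), St3gal4 (0.0575), B4galt4 (0.111), B3galt5 (0.1) and B4galnt1 (0.533) were lost as well. In S166A against KO mice the lost calls included St6galnac2 (0.106), St3gal6 (0.0716), St3gal4 (0.0657), Fut2 (0.215), B3gnt2 (0.0932) and Galnt11 (0.332). In KO against FL mice 13 members kept their call in each refit at an adjusted p under 0.05, that with mouse 10 as KO included. Galnt3, C1galt1, C1galt1c1, B3gnt5, St6galnac2, St3gal6, B4galnt3, Galnt17 and Gcnt3 were among them. Of the 13, C1galt1 (1.47-fold), Gcnt3 (1.49-fold), B3gnt7, Chst13 and St3gal3 did not reach the 1.5-fold threshold tried as an alternative. Without the S166A mice 1 and 2, 13 members rose and 6 fell against KO mice, or 16.05% and 7.41%, with 6.01% and 5.00% of all probe sets. The calls of B3gnt5, B4galt3, B4galt6, Chst11, Galnt11, Galnt12, Gcnt1, St3gal3 and St3gal5 were lost there at an adjusted p of 0.0564 to 0.174.

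Genes that supply these enzymes were measured as a list of 28 for donor sugars and sulfate, of which 2 rose and 3 fell in KO against FL mice. These are 7.14% and 10.7% of the list, below the 11.6% and 13.8% of all probe sets. The sulfate arm held the largest falls. Slc26a2, the sulfate transporter of the colonic epithelium, averaged 11.53 ± 0.29 in S166A mice and 9.61 ± 0.33 in KO mice, against 11.86 ± 0.18 in FL mice (SD, n = 5 each). It fell by 2.25 in KO against FL mice (limma adjusted p = 1.03e-07) and rose by 1.92 in S166A against KO mice (adjusted p = 4.86e-06). Papss1, which makes the sulfate donor PAPS, fell by 1.02 (adjusted p = 5.40e-05) and rose by 0.86 (adjusted p = 8.24e-04) in the same comparisons. Gfpt1, the first enzyme of hexosamine synthesis, fell by 0.42 in KO mice (adjusted p = 0.0122), and the sugar nucleotide transporters Slc35c1 and Slc35d2 rose by 0.49 and 0.44. In S166A against KO mice 3 of the 28 rose (10.7%, with 9.33% of all probe sets), Papss2 among them by 0.57, and 1 fell (3.57%, with 9.9%), Gfus of GDP-fucose synthesis, by 0.39. The median over the list was 0.00 in KO against FL mice, with 0.01 over all probe sets.

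Among 21 mucin and goblet cell genes 3 rose and 5 fell in KO against FL mice, or 14.3% and 23.8%, with 11.6% and 13.8% of all probe sets. Muc2, the gel-forming mucin of the colon and a main carrier of O-glycans there, averaged 12.89 ± 0.14 in S166A mice and 12.74 ± 0.36 in KO mice, against 12.85 ± 0.20 in FL mice, and was not called (adjusted p = 0.693 in KO against FL mice). Retnlb, a goblet cell antimicrobial protein, rose by 7.21, Muc1 by 0.57 and Agr2, which folds mucins, by 0.43. Clca1, a protease of the mucus, fell by 1.93, Klk1 by 1.44 and Fcgbp, a mucus component, by 1.04. In S166A against KO mice 5 rose and 2 fell, or 23.8% and 9.52%, with 9.33% and 9.9% of all probe sets. The differences were 1.49 for Clca1, 1.20 for Klk1, 0.87 for Fcgbp, -0.69 for Agr2 and -6.36 for Retnlb. The list's median difference was -0.03 in KO against FL mice and 0.07 in S166A against KO mice.

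A list of 44 other glycan enzymes, outside the symbols chosen, had 7 higher and 9 lower in KO against FL mice, or 15.9% and 20.5%, with 11.6% and 13.8% of all probe sets. It had 8 higher and 8 lower in S166A against KO mice, or 18.2% each way, with 9.33% and 9.9% of all probe sets. Mgat4c, an N-glycan branching enzyme by sequence, rose by 1.70 in KO mice, and St8sia6 and Mgat2 rose by 0.63 and 0.63. St8sia5 fell by 1.23, Gal3st2b by 1.05 and A4galt, the Gb3 synthase, by 0.98. In S166A against KO mice Gal3st2b, Gal3st1 and Gal3st2 rose by 0.76, 0.63 and 0.60, and Mgat4c, St8sia6 and Mgat2 differed by -1.68, -0.68 and -0.61. Gal3st2 and Gal3st2b, galactose 3-O-sulfotransferases, are close paralogs, so their probe sets may share signal. Neither the mucin list nor this one had a call between S166A and FL mice, nor did the supply list.

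Markers of other cell types moved with the groups. Of all probe sets 11.6% rose and 13.8% fell in KO against FL mice, and 9.33% and 9.9% in S166A against KO mice. The 7 epithelial markers had 0 calls, with list means of 11.44 to 11.71 in S166A mice and 11.41 to 11.60 in KO mice, against 11.42 to 11.55 in FL mice. All 5 absorptive colonocyte markers fell in KO against FL mice and rose in S166A against KO mice. Their list mean was 11.48 to 11.79 in S166A mice and 8.91 to 9.74 in KO mice, against 11.63 to 11.93 in FL mice. Of 6 neutrophil markers 5 rose in KO mice, with list means of 4.42 to 4.90 in S166A mice and 6.59 to 8.59 in KO mice, against 4.28 to 4.64 in FL mice. T cell markers (4 of 5), monocyte and macrophage markers (4 of 5), B and plasma cell markers (2 of 5) and endothelial markers (2 of 6) rose as well. The same numbers of markers fell in these 5 lists in S166A against KO mice. Of 7 goblet cell markers 1 rose and 2 fell in KO against FL mice (14.3% and 28.6%). In S166A against KO mice 2 rose and 1 fell (28.6% and 14.3%). Their list means were 11.15 to 11.31 in S166A mice and 10.73 to 11.39 in KO mice, against 11.26 to 11.48 in FL mice. All 4 smooth muscle markers fell in KO against FL mice and rose in S166A against KO mice, with list means of 11.20 to 11.85 in S166A mice and 8.72 to 10.70 in KO mice, against 11.44 to 11.95 in FL mice. Of 4 fibroblast markers 1 fell, and no marker list had a call between S166A and FL mice. The part of these cell types in the differences of the 81 members was not tested.

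**Figure D4:**
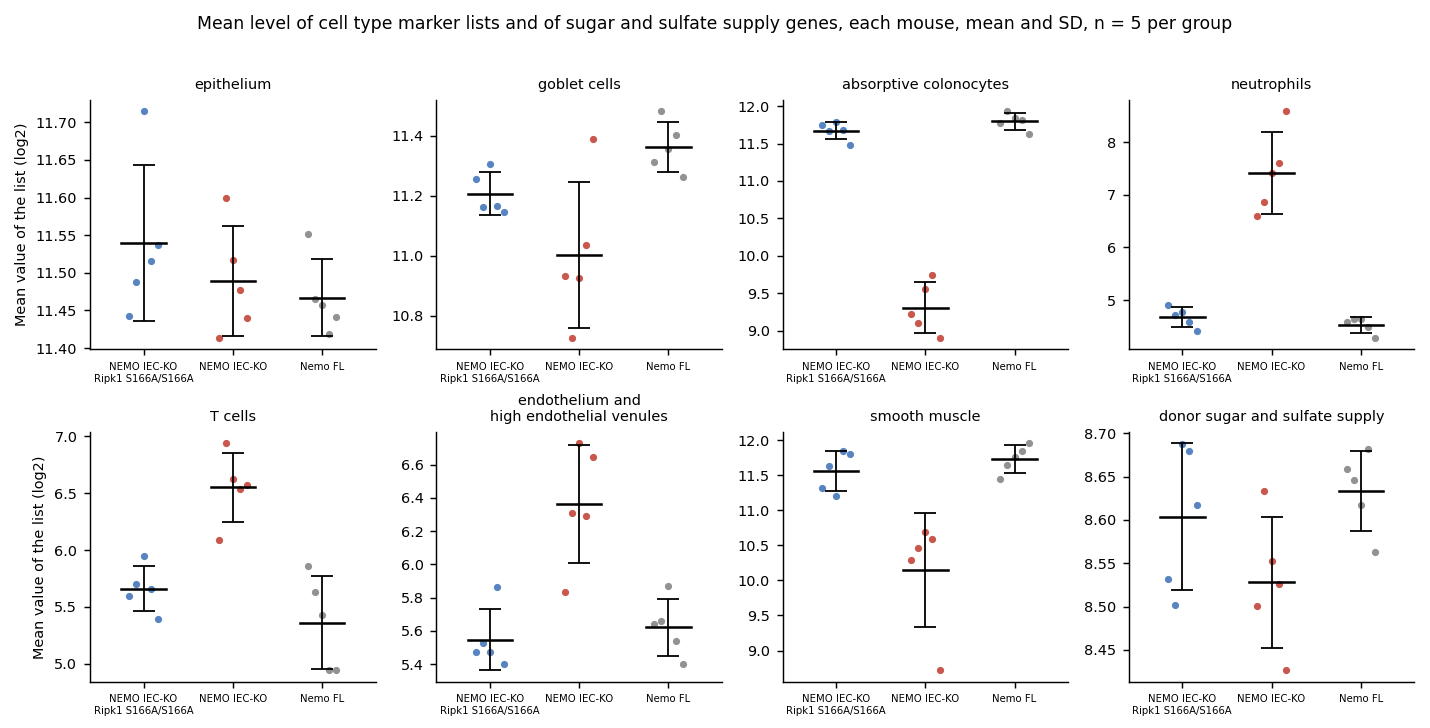
Mean value over the genes of 7 cell type marker lists and of the donor sugar and sulfate supply list (y axis, log2) in each mouse (points) of the S166A, KO and FL groups (x axis, left to right), with the mean and SD (lines, n = 5 per group). The axes do not start at 0 and differ between panels. The absorptive colonocyte list stays at or below 9.74 in KO mice and at or above 11.48 in the other 10, while the epithelial list lies between 11.41 and 11.71 in all 15.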

How the data were processed

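Colon RNA of 15 mice (5 per genotype) was measured on Clariom S mouse arrays. The authors deposited 1 table of 22142 probe sets, whose values are read here as log2; the base, summary and normalization are not given in the sources used here, which name Affymetrix Expression Console and Transcriptome Analysis Console. Fold changes rest on that reading. Groups came from sample titles. The values were used as deposited, without a filter. The 3 pairs of groups each had a fit of their own in limma 3.58.1 (lmFit, eBayes; R 4.3.3), with Benjamini-Hochberg adjustment across every probe set. The fit was checked on simulated normal values with the same spread in both groups, which does not cover groups of unlike spread. With 5 mice a group, the number of arrays limits the precision. Symbols came from the platform annotation, and 2615 probe sets did not carry exactly 1 symbol.

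Members and lists were chosen with earlier results of these data known. Per-mouse values are given for 26 members: the 12 largest called differences in KO against FL mice, the 6 largest in S166A against KO mice, the 3 smallest p-values in S166A against FL mice, the largest call of each class and direction, and 10 genes by role. Of each list the 3 largest calls each way are named. Other members named with a difference were chosen after their values were seen. The alternatives tried were 1 fit over the 3 groups, eBayes with trend and robust settings, array weights, median centring, quantile normalization, filters on low values, probe sets with 1 symbol, mouse 10 as KO, a sex term, mice 1 and 2 left out, stricter thresholds, and each mouse left out. Females alone and males alone were added after seeing the data.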

Additional observations from a re-analysis of the deposited data

Results flagged for a closer look

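Within groups of 5, 81 sets of values were checked for a mouse far from the others (the gap to its nearest neighbour over the group's range above 0.71), and 4 stood out, where chance flags about 1 in 20 such sets. B3galt5 was 9.53 in FL mouse 8, with 9.76 to 9.81 in the other 4. B3gnt5 was 10.63 in S166A mouse 5, with 9.89 to 10.06 in the others of its group. C1galt1 was 10.14 in KO mouse 15, with 9.96 to 10.00 in the others. St6galnac2 was 9.16 in FL mouse 6, with 9.44 to 9.53 in the others.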

How the results depend on the processing

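Without any 1 mouse, 11 to 13 members were higher and 15 to 20 lower in KO against FL mice, 12 to 15 higher and 10 to 11 lower in S166A against KO mice, and 0 in S166A against FL mice. Counts moved by over 1.5 times in these cases. In KO against FL mice, mouse 10 as KO gave 5 higher and 9 lower. A fold over 1.5 with an unadjusted p under 0.05 gave 7 and 9, and an adjusted p under 0.01 gave 11 lower. The fold threshold's shares were 8.64% and 11.1% of the members, with 6.53% and 7.77% of all probe sets. The share lower at the stricter adjusted p was 13.6% of the members, with 8.25% of all probe sets. In S166A against KO mice, mouse 10 as KO gave 7 higher and 6 lower, the sex term 9 and 6, males alone 10 and 6, a fold over 1.5 with an unadjusted p under 0.05 gave 9 higher, and leaving out mice 1 and 2 gave 6 lower. The cause was not tested. Of 30 members called in KO against FL mice, 13 kept their call in every refit at an adjusted p under 0.05 and 22 in all but the one that moved mouse 10. Of 27 called in S166A against KO mice these were 11 and 14. No called member changed sign under the fits listed. The paper describes the mice as littermates, but the sample titles name no litter, so no analysis paired or blocked by litter was made.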
